A study of Homo sapiens with 6 samples.

Results

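Metallothioneins are small cytosolic proteins that bind zinc, copper and cadmium through the sulphur atoms of their cysteines. Their genes stand side by side on chromosome 16, and in most tissues they are switched on when free zinc rises in the cell. The zinc-sensing transcription factor MTF1 does this by binding metal response elements in their promoters, and glucocorticoids and oxidants are also known inducers, MT2A being the classical glucocorticoid-responsive member. Normal prostate epithelium is known for an unusually high zinc content, which is low in prostate cancer.

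The listed genes were 7 of these metallothionein genes (MT1E, MT1F, MT1G, MT1L, MT1M, MT1X and MT2A) together with MTF1. They were chosen by symbol, and 5 of the 8 had a row among the 12703 genes of the count table: MT1F, MT1M, MT1X, MT2A and MTF1. MT1E, MT1G and MT1L had no row and were not analysed here, and whether a filter or the counting left them out is not known, so that statements on the family cover the 4 metallothioneins with a row. The metallothioneins span 75.6 kb of chromosome 16. The cells were PC3, an established human prostate cancer line from a bone metastasis. In 3 libraries the cells carried lentivirus for GCNT1 overexpression and in 3 libraries the negative control lentivirus (Lenti-ORF control), so that transduction was common to both groups. GCNT1 encodes the enzyme that builds the core 2 branch of O-glycans. Each group came from 3 stable lines, and the labels call the libraries biological replicates without saying whether a line is a clone or a pool.

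Libraries held 12125672 to 12755888 counts in controls and 11392213 to 13825704 with GCNT1 overexpression, so that 3 counts, the floor used here, correspond to 0.217 to 0.263 counts per 1000000 counts of the library (CPM). Levels are given as CPM scaled with edgeR's TMM factors. GCNT1 itself gave 9, 13 and 8 counts in the control libraries and 13, 16 and 35 in the overexpressing ones (log2 fold change 0.98, adjusted p = 0.0362 from edgeR's test). This call was lost with DESeq2, with glmTreat, which tests against the fold threshold itself, and without control library 1, control library 3 or overexpressing library 3 (0.49 without the last, with adjusted p-values from 0.0110 to 0.396 over the alternatives). The GCNT1 count was highest in overexpressing library 3. The study's own check of its overexpressing PC3 lines was by real-time PCR, ELISA and immunocytochemistry, which these counts do not measure. All 6 PC3 markers (KRT8, KRT18, EPCAM, VIM, CD44 and EGFR) were present. Their summed level was 2123 to 2220 CPM in controls and 2305 to 2464 CPM with overexpression. Mean VIM was 1127 CPM in controls and 1390 CPM with overexpression. EPCAM also had a slightly higher mean, while KRT8, KRT18, CD44 and EGFR had lower ones. Of 7 fibroblast, endothelial and blood cell markers only PECAM1 had a row, at 1.43 to 1.95 CPM in controls and 3.93 to 5.10 CPM with overexpression, and its part in the results was not tested.

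The 4 metallothioneins with a row encode proteins of 61 amino acids from 3 exons each. Their coding sequences (hg38, GENCODE 44, without the stop codon) are shown because they are near copies of each other, which bears on how reads are assigned. Capitals mark the codons for cysteine, 20 of 61 in each gene (32.8%).
MT2A: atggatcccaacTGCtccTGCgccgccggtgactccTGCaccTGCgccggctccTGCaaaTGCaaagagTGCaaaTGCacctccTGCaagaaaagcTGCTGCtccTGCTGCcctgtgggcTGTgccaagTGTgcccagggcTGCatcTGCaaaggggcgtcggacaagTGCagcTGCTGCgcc
MT1X: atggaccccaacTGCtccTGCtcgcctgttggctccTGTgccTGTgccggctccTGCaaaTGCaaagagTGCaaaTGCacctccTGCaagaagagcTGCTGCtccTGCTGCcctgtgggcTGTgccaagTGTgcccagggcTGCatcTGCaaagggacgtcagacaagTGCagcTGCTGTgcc
MT1F: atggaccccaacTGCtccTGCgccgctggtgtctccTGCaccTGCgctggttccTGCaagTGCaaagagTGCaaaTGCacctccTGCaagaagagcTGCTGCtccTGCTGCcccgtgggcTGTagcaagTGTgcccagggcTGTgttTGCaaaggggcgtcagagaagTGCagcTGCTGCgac
MT1M: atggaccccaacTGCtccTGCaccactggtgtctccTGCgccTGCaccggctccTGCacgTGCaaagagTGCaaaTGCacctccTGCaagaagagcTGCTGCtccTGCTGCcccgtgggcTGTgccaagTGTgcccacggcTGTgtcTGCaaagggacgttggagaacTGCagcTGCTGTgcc
Over 183 positions, identity between pairs ran from 88.5% for MT1F with MT1X to 92.3% for MT1X with MT2A. The longest identical run was 64 bases, shared by MT1F and MT1M, which is shorter than the 75-base reads.

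With the untranslated ends of the transcripts included, none of the 327 windows of 75 bases of MT2A and none of the 351 of MT1F occurred identically anywhere else in hg38 or in the transcript of another gene. For MT1M 4 of 324 windows did (1.23%). MT1X shared 119 of 330 windows (36.1%), with 92 found in an annotated transcript that overlaps it on the same strand, 22 in a transcript of MT1G and 13 in the pseudogene MT1XP1, some windows being found in more than one of these. In MTF1 59 of 7863 windows were shared (0.75%). MT1X was therefore the gene of the 5 with the largest share of windows whose reads could belong elsewhere, and the rule by which the counting assigned shared reads is not given in the sources used here. How far shared reads moved the counts was not tested. An unnamed annotated gene also overlaps MTF1 on the opposite strand.

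The promoters of MT2A and MT1X are shown for the density of metal response elements, the sites through which MTF1 acts. These are the 250 bases upstream of the RefSeq gene start in GRCh38.p14, on the plus strand, and capitals mark the cores searched for, TGCACNC or TGCGCNC of 7 bases on either strand.
MT2A, chr16:56608334-56608583: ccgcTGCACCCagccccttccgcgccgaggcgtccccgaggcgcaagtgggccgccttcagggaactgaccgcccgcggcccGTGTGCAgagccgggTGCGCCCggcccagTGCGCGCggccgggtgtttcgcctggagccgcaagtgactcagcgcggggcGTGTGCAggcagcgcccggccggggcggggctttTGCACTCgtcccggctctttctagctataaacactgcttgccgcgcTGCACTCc
MT1X, chr16:56682220-56682469: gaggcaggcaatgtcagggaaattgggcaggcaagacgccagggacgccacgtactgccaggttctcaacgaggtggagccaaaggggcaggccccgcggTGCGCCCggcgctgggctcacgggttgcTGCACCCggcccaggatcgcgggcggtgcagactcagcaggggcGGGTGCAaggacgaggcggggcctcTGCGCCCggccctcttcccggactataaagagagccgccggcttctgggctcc
MT2A held 7 cores and MT1X held 4. MT1F and MT1M were missing from the promoter sequences used here, so that their cores were not counted. Among 35116 promoters of the same length, 24.8% held at least 1 core, 0.37% at least 4 and 0.0313% at least 7. The promoter of SLC30A1, the zinc exporter that is induced together with metallothioneins, held 1, and that of MTF1 held none of these letters in this window. A match to the core is a description of the sequence and not evidence of binding.

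The comparison asked which of these genes differ between GCNT1 overexpressing cells and control cells. MT2A, the most abundant of the 4 metallothioneins with a row, had a 1.44-fold higher level with GCNT1 overexpression, while the 3 MT1 genes and MTF1 did not pass the test. MT2A's rise stayed below the fold change that the study required of a differentially expressed gene. As a result, 0 of the 5 genes passed both of the study's thresholds (adjusted p 0.05 and absolute log2 fold change 0.58, together termed a call), against 19.3% of all 12703 genes, 8.28% of them higher and 11.1% lower. At the adjusted p alone 1 of the 5 passed, against 57.6% of all genes (28.3% higher and 29.3% lower), and 1 of the 5 had an unadjusted p under 0.05 in the same edgeR test. With limma-voom and with DESeq2 the count past both thresholds was also 0.

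MT2A (Entrez identifier 4502) lies on chromosome 16 from 56608584 to 56609497. It was counted 3051, 3525 and 3641 times in control libraries 1 to 3 and 5402, 4759 and 5461 times in overexpressing libraries 1 to 3. In TMM-normalized CPM these were 242, 283 and 308 in controls and 467, 346 and 387 with overexpression. Every overexpressing library was above every control library, a separation that 62.5% of all genes showed in one direction or the other, and overexpressing library 1 stood highest. In whole cultures such as these, a change in every cell and a change in the share of cells with the RNA cannot be told apart. The means were 278 ± 33.1 and 400.1 ± 61.2 CPM (SD, n = 3 each), and over all 6 libraries MT2A stood at percentile 96.5 of the genes by mean CPM. The log2 fold change was 0.53 (standard error 0.10, 95% interval 0.31 to 0.74, Benjamini-Hochberg adjusted p = 0.000517 from edgeR's quasi-likelihood fit). As a fold this interval ran from 1.24 to 1.67, so that both sides of the study's fold threshold lie within it. The exact two-sided permutation test gave p = 0.10, the smallest value that 3 libraries against 3 allow. Counting error alone was 1.71% of the mean in controls and 1.39% with overexpression, while the libraries of a group varied by 11.9% and 15.3%. Depth was therefore not what limited the precision for MT2A.

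Whether MT2A crossed the fold threshold depended on single libraries and on the scaling. Without overexpressing library 1 the log2 fold change was 0.40, and without overexpressing library 2 it was 0.63, past both thresholds. Without control library 3 it was 0.61, and with library size in place of TMM it was 0.58, also past both. Over the 6 fits that each left out 1 library, the Benjamini-Hochberg adjusted p of edgeR's test stayed between 7.19e-05 and 0.00366.

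**Figure D1:**
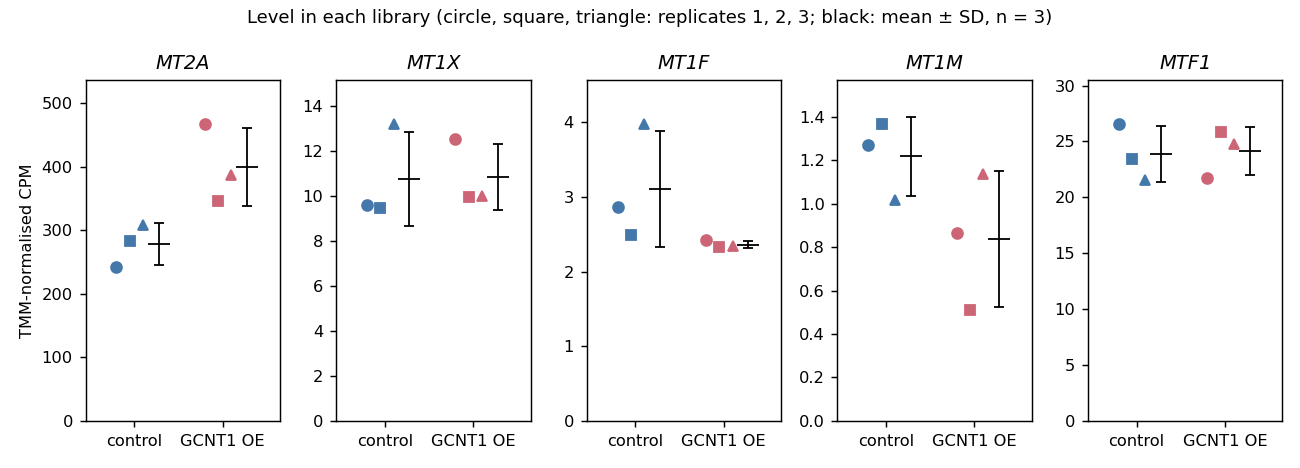
TMM-normalised CPM of the 5 genes in the 3 control (blue) and 3 GCNT1 overexpressing (red) libraries, each panel with its own axis from 0; symbols mark replicates 1 to 3 and black bars the mean ± SD. MT2A is the only gene of the 5 whose overexpressing libraries (346 to 467 CPM) all lie above its controls (242 to 308 CPM).

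MT1X (Entrez identifier 4501, chromosome 16 from 56682470 to 56684196) was the next most abundant member. It gave 121, 118 and 156 counts in the control libraries and 145, 137 and 141 in the overexpressing ones, or 9.61, 9.48 and 13.2 against 12.5, 9.97 and 9.99 CPM. The groups overlapped, with 1 high library in each. Mean levels were 10.8 ± 2.11 and 10.8 ± 1.47 CPM (SD, n = 3 each). The log2 fold change was 0.00 (95% interval -0.30 to 0.31, adjusted p = 0.982 from edgeR's test), an interval that leaves room for a 1.24-fold rise or a fall to 0.811 of the control level. The sign of this value was negative in 3 of the 6 fits that left out 1 library.

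MT1F (Entrez identifier 4494, chromosome 16 from 56657959 to 56659303) gave 36, 31 and 47 counts in the control libraries and 28, 32 and 33 in the overexpressing ones. In CPM the controls were at 2.86, 2.49 and 3.98 and the overexpressing libraries at 2.42, 2.33 and 2.34, so that all 3 of the latter lay below all controls, by a narrow margin. MT1F and MT2A were the 2 genes of the 5 whose groups did not overlap, beside 62.5% of all genes. For MT1F counting error alone came to 16.2% of the mean in controls and 18.0% with overexpression. Its nearest libraries, at 2.49 and 2.42 CPM, were closer than this error. The log2 fold change was -0.39 (standard error 0.21, 95% interval -0.84 to 0.06, adjusted p = 0.126 from edgeR's test) and did not pass. Without control library 3, the highest of the 6, it was -0.18.

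MT1M (Entrez identifier 4499, chromosome 16 from 56632659 to 56633981) was at the edge of detection, with 16, 17 and 12 counts in controls and 10, 7 and 16 with overexpression. These correspond to 1.27, 1.37 and 1.02 CPM against 0.864, 0.510 and 1.13 CPM, and the groups overlapped. Counting error alone came to 25.8% of the mean in controls and 30.2% with overexpression. The log2 fold change of -0.54 carried a 95% interval from -1.23 to 0.16 (adjusted p = 0.169 from edgeR's test), and it ran from -0.85 without overexpressing library 3 to -0.26 without overexpressing library 2. The interval covers 0 and also values past the fold threshold.

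MTF1 (Entrez identifier 4520), the transcription factor upstream of the family, lies on chromosome 1 from 37809574 to 37859592 and has 11 exons. It gave 334, 292 and 255 counts in the control libraries and 252, 355 and 350 in the overexpressing ones. Its levels of 26.5, 23.5 and 21.6 CPM in controls and 21.8, 25.8 and 24.8 CPM with overexpression spanned the same range. The means were 23.9 ± 2.51 and 24.1 ± 2.11 CPM (SD, n = 3 each). With a log2 fold change of 0.02 (95% interval -0.18 to 0.22, adjusted p = 0.870 from edgeR's test), MTF1 mRNA did not differ beyond the spread between libraries, and the interval excludes a change past the study's fold threshold in either direction. The direction itself was not settled, being negative without control library 3 (-0.046) and without overexpressing library 2.

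**Figure D2:**
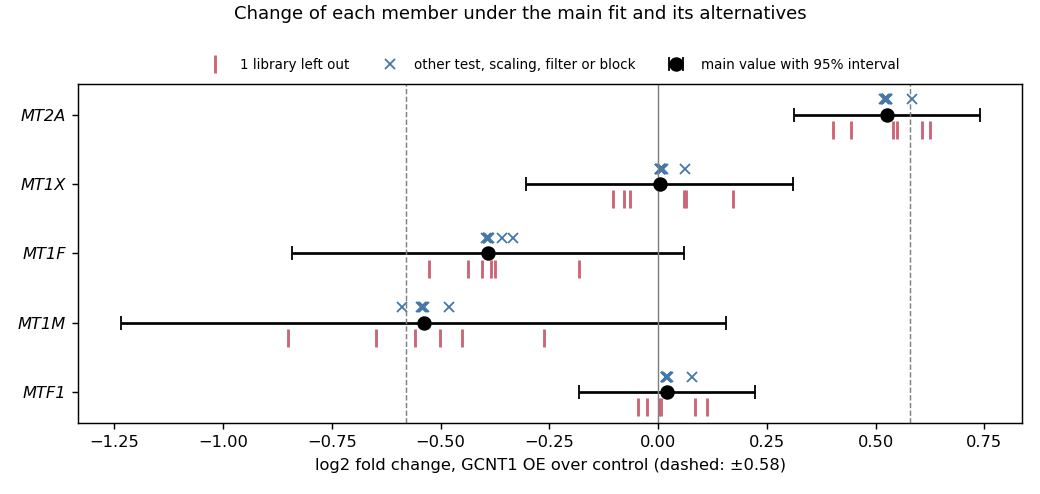
Log2 fold change (GCNT1 overexpression over control) of the 5 genes: black points with 95% intervals are the main values, red ticks leave out 1 library each, and blue crosses use another test, scaling, filter or the replicate block. MT2A lies to the right of 0 in every case, between 0.40 and 0.63 and on both sides of the dashed line at 0.58, whereas MT1X and MTF1 straddle 0.

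Per kilobase of the canonical transcript, MT2A, MT1X and MT1F followed one another in falling order in both groups, with MT1M and MTF1 lowest. In controls MT2A stood at 693 ± 82.5 CPM per kb, MT1X at 26.6 ± 5.22, MT1F at 7.31 ± 1.82, MT1M at 3.06 ± 0.456 and MTF1 at 3.01 ± 0.316 (SD, n = 3 each). The last pair of neighbours did not differ beyond their spread. With overexpression MT2A stood at 998 ± 153 and MT1X at 26.8 ± 3.64 CPM per kb, followed by MT1F at 5.56 ± 0.116, MTF1 at 3.04 ± 0.266 and MT1M at 2.10 ± 0.787, so that the order of the last 2 was turned but again within their spread. The metallothioneins without a row have no place in this order.

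Summed over the 4 genes, metallothionein counts were 3224, 3691 and 3856 in controls and 5585, 4935 and 5651 with overexpression. The sum went from 293 ± 35.1 to 414 ± 62.8 CPM (SD, n = 3 each), a ratio of 1.41, with no overlap between the groups and no test applied. MT2A made up 94.6%, 95.5% and 94.4% of the summed counts in controls and 96.7%, 96.4% and 96.6% with overexpression. The lowest overexpressing share, 96.4% (95% Wilson interval 95.9 to 96.9), and the highest control share, 95.5% (94.8 to 96.1), had intervals that overlapped at their ends, and these intervals cover counting error only.

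The ratio of each MT1 gene to MT2A within a library does not depend on how libraries are scaled. For 1 count of MT1X there were 25.2, 29.9 and 23.3 counts of MT2A in controls and 37.3, 34.7 and 38.7 with overexpression. For 1 count of MT1F there were 84.8, 114 and 77.5 counts of MT2A in controls and 193, 149 and 165 with overexpression. In both genes the groups did not overlap. The nearest libraries stood at 29.9 and 34.7 for MT1X and at 114 and 149 for MT1F. Counting error alone was 8.71% of the mean count of MT1X in controls and 8.42% with overexpression. For MT1F it was 16.2% and 18.0%. For MT1M the numbers were 191, 207 and 303 in controls and 540, 680 and 341 with overexpression, which separated by less. On the log2 scale the ratio to MT2A differed between overexpression and control by -0.50 for MT1X, -0.89 for MT1F and -1.13 for MT1M. Each of these 3 comparisons had an exact two-sided permutation p of 0.10, adjusted over the 3 to 0.10, the smallest value the design allows. They share MT2A in the denominator and are not independent of one another, and 62.5% of single genes also separated without overlap.

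**Figure D3:**
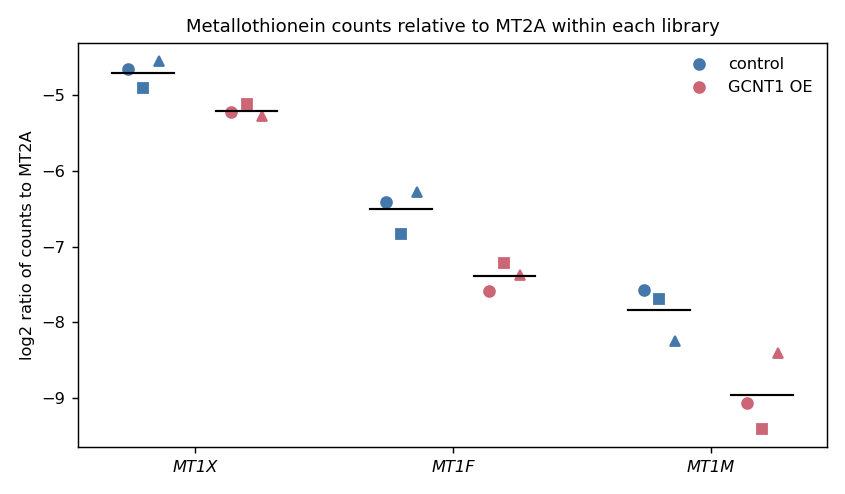
Log2 ratio of the counts of MT1X, MT1F and MT1M to those of MT2A in each library, controls in blue and GCNT1 overexpression in red, with symbols for replicates 1 to 3 and bars at the group means. All 3 ratios are lower in every overexpressing library than in every control library, with the narrowest gap for MT1M.

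The 17 analysed genes within 1 Mb of the metallothionein cluster on either side are shown beside them for position alone. They had a median log2 fold change of -0.10, against 0.00 over all genes, and 3 of the 17 were called, beside 19.3% of all genes. ADGRG1, an adhesion G protein-coupled receptor, had 472, 533 and 506 counts in controls and 159, 187 and 174 with overexpression (log2 fold change -1.63, standard error 0.09). NLRC5, the activator of MHC class I genes, had 25, 29 and 25 counts in controls and 80, 87 and 66 with overexpression (log2 fold change 1.46, standard error 0.19). CCDC102A fell by 0.60 on the log2 scale. Its call was lost with glmTreat, with library size in place of TMM (-0.54) and without control library 3 (-0.53) or overexpressing library 3 (-0.50). At the adjusted p alone 1 of the 17 was higher and 7 were lower, beside 28.3% of all genes higher and 29.3% lower. The nearest analysed genes on the 2 sides of the cluster, BBS2 and NUP93, had log2 fold changes of -0.29 and -0.02.

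**Figure D4:**
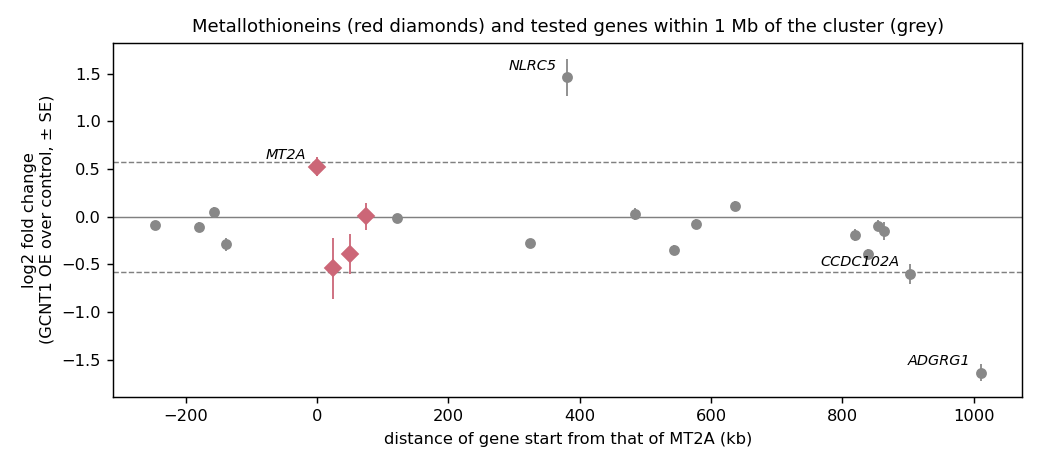
Log2 fold change (± SE) of the 4 metallothioneins (red diamonds) and of the 17 analysed genes within 1 Mb of the cluster (grey), against the distance of each gene's start from that of MT2A in kb. Most neighbours lie near or below 0, under MT2A at 0.53, and the 3 called neighbours are named.

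Genes known to respond to MTF1 gave values in both directions. SLC30A1, the plasma membrane exporter that lowers cytosolic zinc and is an MTF1 target like the metallothioneins, gave 111, 98 and 81 counts in the control libraries and 108, 157 and 154 in the overexpressing ones. Its level of 7.85 ± 0.985 CPM in controls was below that of 10.6 ± 1.09 CPM with overexpression, with no overlap (log2 fold change 0.43 ± 0.12 SE, with adjusted p = 0.00951 by edgeR), so that it passed the adjusted p but not the fold threshold. SELENOH, a selenoprotein of the nucleolus, came to 0.46 on the log2 scale (edgeR, adjusted p = 0.000428). SLC39A10, a zinc importer that MTF1 is known to repress, gave 941, 886 and 716 counts in the control libraries and 469, 647 and 649 in the overexpressing ones and fell by 0.63 on the log2 scale (± 0.08 SE, with adjusted p = 2.90e-05 by edgeR), past both thresholds. GCLC, PGF and SELENOW had log2 fold changes of -0.09, -0.37 and -0.02 and did not pass. Of the 6 targets analysed 0 were called higher and 1 lower, beside 8.28% and 11.1% of all genes. The median log2 fold change was -0.06, over a list that holds genes MTF1 is known to induce together with one it represses, so that nothing is read from its sign. The call of SLC39A10 was lost with glmTreat, with library size in place of TMM and without control library 1 or overexpressing library 1. The smallest of these values was -0.55.

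Among the other zinc transporters, 5 more exporters of the SLC30A family were analysed. SLC30A4, which loads zinc into vesicles, gave 101, 81 and 67 counts in the control libraries and 30, 64 and 52 in the overexpressing ones. It was called (log2 fold change -0.87 ± 0.20 SE, with adjusted p = 0.00203 by edgeR), and this call was lost with glmTreat. SLC30A5, SLC30A6 and SLC30A9 fell by 0.31, 0.30 and 0.33 on the log2 scale, past the adjusted p only. Of all 6 exporters 0 were called higher and 1 lower (median -0.31), beside 8.28% and 11.1% of all genes, and at the adjusted p alone 1 was higher and 4 were lower, beside 28.3% and 29.3%. SLC30A1 was thus the single exporter with a higher level. Of 10 importers of the SLC39A family SLC39A10 alone was called (median -0.02), beside 19.3% of all genes. At the adjusted p alone 4 importers were higher and 3 lower, beside the same 28.3% and 29.3%. The 4 were SLC39A8, a zinc and manganese importer (0.51), SLC39A11 (0.44), SLC39A3 (0.35) and SLC39A14 (0.13), and with SLC39A10 the 3 were SLC39A13 (-0.31) and SLC39A1 (-0.17).

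Copper handling and glutathione, which binds metal ions, act beside metallothioneins, and the heat shock response to misfolded protein is known to be induced by metals such as cadmium. None of 14 copper genes was called in edgeR's test, beside 19.3% of all genes, with a median log2 fold change of 0.06. At the adjusted p alone 4 of them were higher, among them SLC31A1, the copper importer (0.37), and SOD1, the copper and zinc dependent superoxide dismutase (0.43), and 3 were lower, among them the copper exporter ATP7A (-0.42), together 7 of 14 beside 57.6% of all genes. None of 7 glutathione genes was called either (median -0.09), beside the same 19.3%. At the adjusted p alone GCLM and GSS, which make glutathione, were lower (-0.52 and -0.47) and the peroxidase GPX1 was higher (0.37), 3 of 7 beside 57.6%. Of 10 metal and heat shock response genes 1 was called, beside 19.3% of all genes. This was the chaperone HSP90AA1, with 37799, 37462 and 33091 counts in controls and 22423, 26361 and 27518 with overexpression (log2 fold change -0.60). At the adjusted p alone 1 of the 10 was higher, the mitochondrial chaperone HSPD1 (0.12), and 3 were lower, beside 28.3% and 29.3% of all genes. With HSP90AA1 the 3 were HSPB1, a small heat shock protein (-0.53), and HMOX1, the haem-degrading enzyme that cadmium induces strongly (-0.44). HSP90AA1 was no longer past the fold threshold with library size in place of TMM (-0.54) or without control library 1. Its call was also lost with glmTreat.

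Glucocorticoid-responsive genes, listed because MT2A is one, also gave values in both directions. FKBP5, a co-chaperone of the glucocorticoid receptor, gave 296, 299 and 252 counts in the control libraries and 427, 465 and 473 in the overexpressing ones (log2 fold change 0.60 ± 0.08 SE, with adjusted p = 2.17e-05 by edgeR). KLF9, a transcription factor, had 400, 346 and 359 counts in controls and 16, 20 and 24 with overexpression (log2 fold change -4.29, standard error 0.13). SGK1, a kinase, fell by 0.73 on the log2 scale. NR3C1, which encodes the receptor itself, came to -0.02 on the log2 scale (edgeR, adjusted p = 0.844). Of the 9 genes analysed 1 was called higher and 2 lower (median -0.02), beside 8.28% and 11.1% of all genes. At the adjusted p alone 1 was higher and 3 were lower, beside 28.3% and 29.3%. With KLF9 and SGK1 the 3 included TSC22D3 (log2 fold change -0.26, adjusted p = 0.0423 by edgeR). FKBP5 was close to the fold threshold, with log2 fold changes from 0.55 to 0.63 when 1 library was left out. Its call was lost without control library 3 or overexpressing library 1. The calls of FKBP5 and SGK1 were lost with glmTreat.

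**Figure D5:**
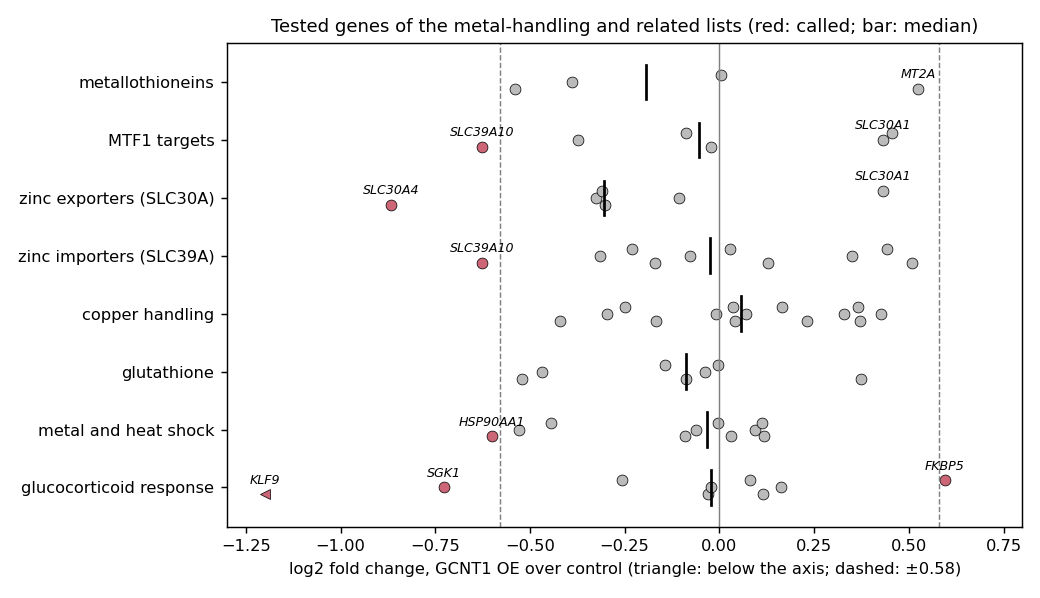
Log2 fold change (GCNT1 overexpression over control) of each tested gene in the metallothionein list and 7 related lists; red points passed both thresholds, grey points did not, black bars are list medians and the triangle marks KLF9 at -4.29, beyond the axis. No list lies to one side of 0 as a whole, with SLC30A1 at 0.43 and SLC39A10 at -0.63 among the MTF1 targets.

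The genes outside the family whose profile over the 6 libraries was closest to that of MT2A were ZNF703, HEMK2, FBRSL1, CSK and CA5BP1. Likeness was the root mean square distance between log2 CPM values after each gene's mean was subtracted, and over 12601 genes its median was 0.345. For these 5 genes it ran from 0.0409 for ZNF703 to 0.0610 for CA5BP1, and their log2 fold changes from 0.47 to 0.60. ZNF703 gave 313, 387 and 382 counts in the control libraries and 584, 529 and 600 in the overexpressing ones. Its overexpressing library 1 was highest in CPM, as in MT2A. The 5 genes were picked by this likeness, so that values like those of MT2A follow from the choice. A shared regulation was not tested.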

How the data were processed

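PC3 libraries, 3 with GCNT1 overexpression and 3 controls, were compared by the labels' groups. The authors' reads came from a stranded mRNA kit and were single and 75 bases long. Cutadapt (trimming), HISAT2 (mapping, hg38) and featureCounts were their tools, and the deposited values are raw counts per Entrez gene. The annotation, the strand setting and the handling of reads that match several genes are not given in the sources used here. Symbols and positions came from RefSeq for GRCh38.p14 (12661 of 12703 identifiers matched).

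Counts were analysed with edgeR 4.0.16 in R 4.3.3 (filterByExpr, which kept all genes, TMM factors, quasi-likelihood test, Benjamini-Hochberg adjustment over 12703 genes). The study itself used limma-voom, an alternative here beside DESeq2 1.42.0. The p-values measure the spread between these libraries. Libraries of a group differed by more than sampling noise (chi-square per degree of freedom 1.65 to 5.65). The fits were tested on simulated data in which a small part of the genes changed, all by more than the fold threshold. This does not bear on genes near the threshold, such as MT2A. Members and lists were chosen with earlier results of these data known. Named genes were the members, SLC30A1, at most 2 called genes in each direction of each list, the 3 called neighbours with the largest change and the 5 nearest profiles. Other genes named with values were chosen after their values were seen. These were the transporters, copper, glutathione, heat shock, glucocorticoid-responsive and receptor genes that were not called, and the nearest neighbours of the cluster. Shared windows were exact matches in hg38 and GENCODE 44.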

Additional observations from a re-analysis of the deposited data

How the results depend on the processing

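None of the 4 metallothioneins was called, and in 11 of 14 alternatives this was so too. With library size in place of TMM 1 was called, MT2A, and leaving out 1 library gave 0 to 1. MT2A's log2 fold change was 0.40 to 0.63 when 1 library was left out and always past the adjusted p. Tested against the fold threshold itself (glmTreat) it remained 0.53 with an adjusted p of 1, and glmTreat called 1392 genes in all instead of 2457. Leaving out 1 library gave -0.046 to 0.11 for MTF1, -0.10 to 0.17 for MT1X, -0.53 to -0.18 for MT1F, -0.85 to -0.26 for MT1M and 2409 to 2511 genes called. The summed counts stayed between 0.38 and 0.59 on the log2 scale over 7 alternatives. The number of called genes beside the cluster stayed between 2 and 3. MT1M could not be fitted under the minimum of 10 counts in every library. Replicate numbers did not pair the libraries: deviations of same-numbered libraries had correlations from -0.35 to 0.02. With the replicate block, 2423 genes were called, 2414 of them shared with the fit without it, MT2A had a log2 fold change of 0.52 and no metallothionein was called. In the related lists the zinc importers, the MTF1 targets and the metal and heat shock genes went from 1 called gene each to 0 with library size in place of TMM and with glmTreat, and the zinc exporters to 0 and the glucocorticoid-responsive genes from 3 to 1 with glmTreat. Leaving out 1 library gave 0 to 1 for the importers and the MTF1 targets, 1 to 2 for the metal and heat shock genes and 2 to 3 for the glucocorticoid-responsive genes. MT1M and MT1F had at most 17 and 47 counts in a library. Counting error alone was 25.8% of the mean for MT1M in controls and 30.2% with overexpression. The libraries of these groups varied by 14.9% and 37.5%. For MT1F counting error was 16.2% and 18.0%, and the libraries varied by 24.9% and 2.09%. How far depth rather than the spread between libraries set the intervals of MT1M and MT1F was not tested. GCNT1 was not called with DESeq2, with glmTreat or without control library 1, control library 3 or overexpressing library 3.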
